A study of Oryza sativa with 3 samples.

Results

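The occupied nucleosome pairs with long linkers were pairs of neighbouring nucleosomes in rice leaf chromatin that both held many MNase-seq reads and lay farther apart than usual. Of 3456843 adjacent pairs of nucleosome calls in the genome, 48588 had a distance of 211 to 240 bp between their centres, and 2864 of these were occupied at both calls. The members were chosen by measured values. The distance came from the calls of the paired-end library, with the centre of a call taken 60 bp after its start. Occupancy was measured in the single-end library. Each 5' end was shifted 73 bp inward to give a read centre, and the occupancy of a call was its number of read centres no more than 20 bp away. Both calls had to reach 8 or more. With a core of 147 bp, the linkers of the members were 64 to 93 bp long. Distances and occupancies of the members are therefore descriptions, as is every value below.

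All data came from seedling leaf of the cultivar Nipponbare, harvested after 2 weeks of growth, with nuclei digested by MNase, mono-nucleosomal DNA cut from a gel, and no other treatment. The single-end library was 1 biological replicate, sequenced in 2 technical replicates that were deposited together. The paired-end library was another biological replicate and was used through its 3456855 nucleosome calls. The single-end library held 26516807 reads, or 71.3 reads per kb, and 14.5% of them were repeats with a start and strand already seen. With 1 library in each form no test between samples was possible, so spreads below are over pairs or over the 12 chromosomes.

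A nucleosome holds DNA wrapped around a histone octamer, and the linker joins it to the next nucleosome. MNase digests linker DNA before core DNA, so the 5' ends of reads from mono-nucleosomal DNA mark the edges of nucleosomes. Linker length varies between cell types, species and chromatin states, and linker histones and chromatin remodelers are known to influence it. Binding of other proteins between nucleosomes can also set them apart. The sequence of the linkers and the genes around them are not described here, because positions in these data refer to TIGR release 5 of the rice genome, for which no sequence was used.

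Members became rarer as the distance grew. Distances of 211 to 220 bp were found in 1608 members, 221 to 230 bp in 772 and 231 to 240 bp in 484. The median distance was 219 bp (quartiles 214 and 226 bp), which left a median linker of 72 bp. Just inside the limits of distance, 198 pairs at 211 bp and 44 pairs at 240 bp were occupied. Just outside, 224 pairs at 210 bp and 37 pairs at 241 bp were occupied, so the limits did not coincide with a break in the distribution.

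The share of occupied pairs also fell with distance. Among all adjacent pairs at any distance, 5.49% were occupied at both calls, and among pairs at 211 to 240 bp it was 5.89% (95% Clopper-Pearson interval 5.69% to 6.11%). Pairs at an ordinary distance of 170 to under 200 bp, which leaves linkers of 23 to 52 bp, were occupied in 9.57% of cases (15109 of 157866). These 15109 pairs served as the comparison group and are called ordinary pairs. Within the long distances the share was 7.08% at 211 to 220 bp, 5.25% at 221 to 230 bp and 4.33% at 231 to 240 bp. Among the bins from 141 to 400 bp it was highest at 191 to 200 bp, with 9.76%. Shorter distances were not divided into bins. Intervals describe counting error alone, because the libraries carried no molecular identifiers and copies of a molecule cannot be told apart.

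**Figure D1:**
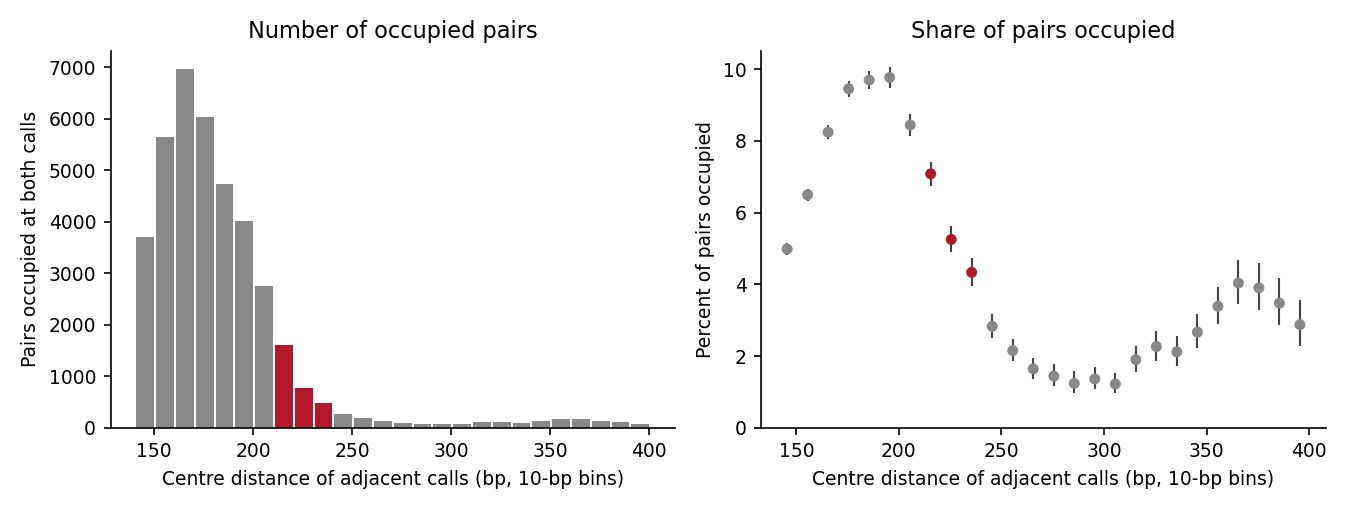
Number (left) and share (right) of adjacent pairs of calls with an occupancy of 8 or more at both calls, in bins of 10 bp of centre distance. Red marks 211 to 240 bp, bars on points are 95% Clopper-Pearson intervals, and the share falls from 9.76% at 191 to 200 bp to 4.33% at 231 to 240 bp.

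Most members lay close to the minimum of occupancy. A random position would have 2.92 reads, so the minimum of 8 is 2.74 times the random level. The smaller occupancy of a pair was 8 or 9 in 1512 members, 10 or 11 in 728 and 12 or more in 624. Just outside the limit, 1294 long pairs had a smaller occupancy of 7, against 877 with 8. A call of a member had 12.5 ± 4.94 reads (SD, n = 5728 calls), and the left and right calls had the same mean of 12.5. The larger occupancy was a median of 1.33 times the smaller one. Ordinary pairs had 12.7 ± 5.19 reads per call (n = 30218), so both groups entered the comparisons at nearly the same occupancy. The other 45724 long pairs had 3.77 ± 3.96 reads per call, and in 28.7% of all long pairs at least 1 call had no read. In 1809 of the other long pairs (3.96%) not a single read started anywhere between the outer edges.

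The nucleR score of the paired-end library, which the rule did not use, was also high at the members. The median score was 0.700 (quartiles 0.615 and 0.743), against 0.476 at the calls of the other long pairs and 0.469 over all calls. It was higher than at other long pairs on 12 of 12 chromosomes. Ordinary pairs had a median of 0.709, and the members were slightly below them on 12 of 12 chromosomes. The score differed between chromosomes in both groups, with 0.550 for members on chromosome 9, 0.631 on chromosome 2 and 0.696 to 0.734 on the others. Scores rose with occupancy, from a median of 0.680 in members with a smaller occupancy of 8 or 9 to 0.731 in members with 12 or more. By distance the medians were 0.703, 0.701 and 0.687, from the shortest to the longest class. The quartiles of these classes overlapped widely.

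The member with the highest smaller occupancy lay on chromosome 12, with centres at 2882212 and 2882426. Its calls had 31 and 30 reads and scores of 0.772 and 0.781, and 2 read centres lay near the midpoint of its 67-bp linker. On chromosome 2, the calls centred at 646927 and 647138 had 34 and 29 reads, with scores of 0.817 and 0.774 and no read centre near the midpoint. Its next call to the left lay 176 bp away. The member on chromosome 7 at 29431434 and 29431656 had 26 reads at each call, and 1 read centre near the midpoint of a 75-bp linker. These were the members with the strongest signal at both nucleosomes. The read density of the surrounding 10 kb would give 3.89, 5.09 and 5.40 reads per call in the pairs on chromosomes 12, 2 and 7. That their calls exceed these levels follows from picking the highest occupancies.

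Between the calls of a member, few read centres were found. By the rule no call lay there, so a low level is in part built into the choice, as it is in ordinary pairs. Within 20 bp of the midpoint, members had 2.28 ± 2.26 read centres (SD, n = 2864), which is 18.3% of the level at the calls and 0.781 times the random level. That random level is a genome mean at 71.3 reads per kb, and the 10 kb around members had 89.7 5' ends per kb. Relative to local depth the midpoint was therefore lower still. Ordinary pairs had 2.65 ± 2.56 read centres (n = 15109), or 20.9% of the level at the calls. The share was lower in members on 12 of 12 chromosomes. It ranged from 15.5% to 20.3% over the chromosomes in members (SD 1.34) and from 20.0% to 22.0% in ordinary pairs (SD 0.625), so that the ranges met at one end. The midpoint of a member lies farther from the centres than that of an ordinary pair, and the part of this distance in the difference was not tested. Within the members the share was 18.8%, 17.7% and 17.5% in the distance classes from shortest to longest.

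Midpoints without a read centre were a minority among members. No read centre lay near the midpoint in 640 members (22.3%, interval 20.8% to 23.9%), against 20.3% of ordinary pairs. In the other long pairs, which had fewer reads, it was 51.8%. The share in members was 20.5% (18.6% to 22.6%) at 211 to 220 bp and 26.4% (22.6% to 30.6%) at 231 to 240 bp. Among the members without a read centre at the midpoint, the highest sums of occupancy were at the pair on chromosome 2 given above, on chromosome 1 at 1397668 and 1397905 (34 and 21 reads, linker of 90 bp), and on chromosome 2 at 27608893 and 27609109 (39 and 15 reads, linker of 69 bp). In the last pair the call with 15 reads scored 0.478, below the lower quartile of the members.

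A few members held as many reads between the calls as at them. The level at the midpoint reached that of the less occupied call in 45 members (1.57%, interval 1.15% to 2.10%), and 8 or more read centres lay there in 100 members (3.49%). The corresponding values of ordinary pairs were 2.30% (2.06% to 2.55%) and 5.26%. The highest number was 18, on chromosome 11 between centres at 5645354 and 5645568, whose calls had 21 and 12 reads. A pair on chromosome 4 at 20241788 and 20242014 had 17 read centres at the midpoint and 18 and 12 reads at the calls. On chromosome 10, between 2942692 and 2942924, 15 read centres lay at the midpoint beside 13 and 29 reads at the calls. In these 3 pairs the single-end library had reads at a position where the paired-end library had no call.

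The profile of read centres was lopsided at the members. At 40 bp from the centre of a call, the level on the inner side, toward the linker, was 6.01 read centres per 41 bp, and that on the outer side was 5.23. The inner level was 1.15 times the outer one (SD over chromosomes 0.0517, range 1.06 to 1.24). In ordinary pairs the inner level was lower than the outer one, with a ratio of 0.919 (SD 0.0174, range 0.888 to 0.951). The ranges over the 12 chromosomes did not overlap. The other long pairs, at the same distances but without the occupancy, had a ratio of 0.862 (0.846 to 0.886). The ratio in members was 1.13, 1.15 and 1.21 from the shortest to the longest distance class. It was 1.11, 1.17 and 1.21 from the lowest to the highest class of occupancy. Members were chosen on reads within 20 bp of a centre, and the window at 40 bp touches that zone at its edge only. When forward ends chose the pairs and reverse ends gave the levels, the ratio was 1.11, and with the strands exchanged it was 1.15.

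Farther from the centre the order turned. At 60 bp the levels were 4.18 on the inner and 4.17 on the outer side, and the inner side was lower on 4 of 12 chromosomes. At 100 bp the inner level was 2.35 and the outer level 3.62, with the inner side lower on 12 of 12 chromosomes. No call lay inside a member by the rule, while calls were free to lie outside, so that a lower level inside is in part built into the choice. Read centres of members were thus denser just inside the calls than just outside them, and sparser in the middle of the linker.

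**Figure D2:**
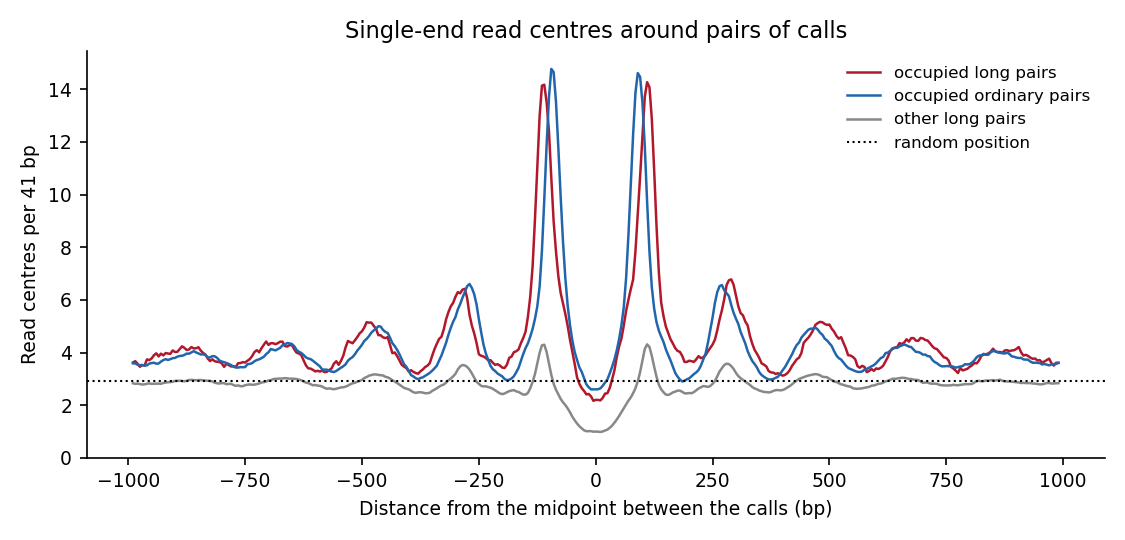
Mean number of single-end read centres per 41 bp by distance from the midpoint of 2864 occupied long pairs (red), 15109 occupied ordinary pairs (blue) and 45724 other long pairs (grey), with the random level dotted. The red curve stands at 2.20 at the midpoint, where the count within 20 bp was 2.28. Counted from the centre of each call instead, the level of occupied long pairs at 40 bp was 6.01 on the inner and 5.23 on the outer side.

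The 5' ends of reads were counted in the linker itself, between the expected edges of both cores. A member had 13.4 ± 5.58 ends in its linker (SD, n = 2864), or 181 ends per kb, of which 91.9 per kb were on the forward and 88.8 per kb on the reverse strand. Only 6 members had no end in the linker. Ordinary pairs had 8.72 ± 4.21 ends in their shorter linkers, a density of 243 per kb. Nearly all of an ordinary linker, 35.9 bp on average, lay within 20 bp of an edge, where ends counted toward occupancy. The higher density in ordinary pairs is therefore in part built in by the rule and the linker length. The other long pairs had 59.5 per kb, below the mean of the genome. In the part of the linker that was more than 20 bp from either edge, members still had 159 ends per kb, and 118 members (4.12%) had none there.

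Along the linker the strands were mirror images. Reverse ends, which close the left nucleosome, fell from 166 per kb in the part next to the left call to 38.8 per kb next to the right call, when the linker was divided into 12 equal parts. Forward ends, which open the right nucleosome, rose from 40.9 to 179 per kb. In both strands the lowest part was close to 35.6 per kb, the genome mean of 1 strand. The local mean was higher, since the 10 kb around members had 89.7 ends per kb over both strands, against 71.3 in the genome. Near the middle both strands stood at 76.9 to 83.0 per kb. Summed over the members, the ends thus tailed into the linker from both sides. Such a sum cannot show how sharp the edge of a core is in a single pair. The high densities within 20 bp of each core are in part built in, because those ends counted toward occupancy.

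**Figure D3:**
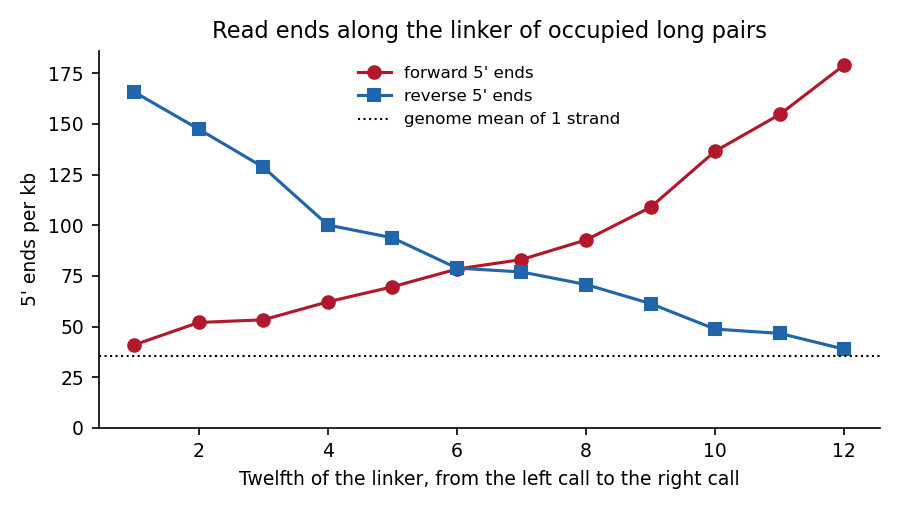
Forward (red) and reverse (blue) 5' ends per kb in 12 equal parts of the linker of 2864 occupied long pairs, from left call to right call, with the genome mean of 1 strand dotted. Reverse ends fall from 166 to 38.8 per kb while forward ends rise from 40.9 to 179 per kb.

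The edges of the cores were read largely from the ends that the rule had counted. Members and ordinary pairs were both chosen by ends within 20 bp of an expected edge 73 bp from the centre. A maximum near 73 bp, and so a core near 147 bp, is therefore largely built into the choice of both groups. The maximum of ends lay 70 bp from the centre on the inner edge of the left call and 74 bp on that of the right call. On the outer edges it lay at 75 and 73 bp. From edge to edge this gave 146 bp for the left and 148 bp for the right nucleosome, against 147 and 149 bp in ordinary pairs. The inner edges were on average 76.0 bp apart (SD over chromosomes 3.97), compared with a mean linker of 74.0 bp from the calls. Ends 11 to 20 bp beyond the expected edge made up 21.8% of the ends within 20 bp of the inner edge and 20.9% of those at the outer edge. In ordinary pairs these shares were 20.8% and 21.8%, in the opposite order.

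Outside the pair, the next nucleosome lay at ordinary spacing. The first maximum of read centres outward from the pair was at 173 bp (SD over chromosomes 8.52, range 168 to 199), with 172 bp on the left and 178 bp on the right side. Ordinary pairs had 177 bp (SD 3.01, range 174 to 185), and the difference was smaller than the spread over chromosomes. Further maxima of the members followed at 376 and 564 bp, against 373 and 570 bp in ordinary pairs. At the first step, a long linker was thus not continued by a long step outside the pair. The second step was 203 bp in members and 196 bp in ordinary pairs. It was 201, 204 and 210 bp from the shortest to the longest distance class, and a spread over chromosomes was not computed for it. The third maximum of these classes was at 594, 596 and 590 bp. In all members the profile was nearly flat there, with 4.50 read centres per 41 bp at 565 bp and 4.43 at 595 bp. In the longest distance class the first outward maximum was at 170 bp and in the shortest at 179 bp.

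The arrays outside the members were less sharply modulated near the pair. The first outward maximum had 6.11 read centres per 41 bp and the trough before it 3.61, a ratio of 1.69. In ordinary pairs the values were 6.21 and 3.04, a ratio of 2.04. The ratio at the following maximum was 1.54 in members and 1.59 in ordinary pairs. It rose with occupancy in the members, from 1.58 for a smaller occupancy of 8 or 9 to 2.02 for 12 or more at the first maximum. It was 1.80, 1.64 and 1.55 from the shortest to the longest distance class. Other long pairs had 1.37.

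The calls of the paired-end library next to the pair gave a related picture, in measures that the rule did not use. The median distance from an outer centre to the next call was 105 bp (quartiles 72 and 159 bp, n = 5728 sides), with 107 bp on the left and 104 bp on the right side. Since this is shorter than a core, the next call was often an alternative position that overlapped the same nucleosome. Such overlapping calls followed on 69.9% of the sides of members (SD over chromosomes 1.42, range 67.5% to 72.1%) and on 62.3% of the sides of ordinary pairs (SD 1.26, range 60.3% to 64.2%). The ranges did not overlap, and members were higher on 12 of 12 chromosomes. Over all adjacent pairs the share was 83.1%, and at other long pairs it was 72.6%.

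The immediate next call was less often at a regular distance in members than in ordinary pairs, but more often than in the other long pairs. A next call at 150 to under 200 bp was found on 19.7% of the sides of members (interval 18.7% to 20.7%) and on 25.9% of those of ordinary pairs (25.4% to 26.4%), again with members lower on 12 of 12 chromosomes. Such a call stood on both sides in 112 members (3.91%) and in 8.49% of ordinary pairs. In the other long pairs it was found on 14.9% of sides, and on both sides in 2.51% of pairs. Of all adjacent pairs, 9.54% had such a distance. Within the members, overlapping next calls rose from 68.0% at 211 to 220 bp to 72.1% and 72.7% in the longer classes. These differences depended on which call was taken as the next. When it had to be at least 120 bp away, the median distance was 171 bp in members and 173 bp in ordinary pairs, close to the spacing read from the single-end reads. A call at 150 to under 200 bp was then found on 56.4% of the sides of members (interval 55.1% to 57.7%). In ordinary pairs it was on 58.6% of sides (58.0% to 59.2%). Both sides had such a call in 31.8% of members (30.1% to 33.5%) and 34.5% of ordinary pairs (33.8% to 35.3%). For the next occupied call the shares of sides were 22.0% (20.9% to 23.1%) and 23.8% (23.3% to 24.2%). The shares with such a call on both sides were 6.04% (interval 5.20% to 6.98%) in members and 5.93% (5.56% to 6.32%) in ordinary pairs. This is no difference beyond counting error. The intervals overlapped only in this last comparison, and the shares of members were lower in the others.

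**Figure D4:**
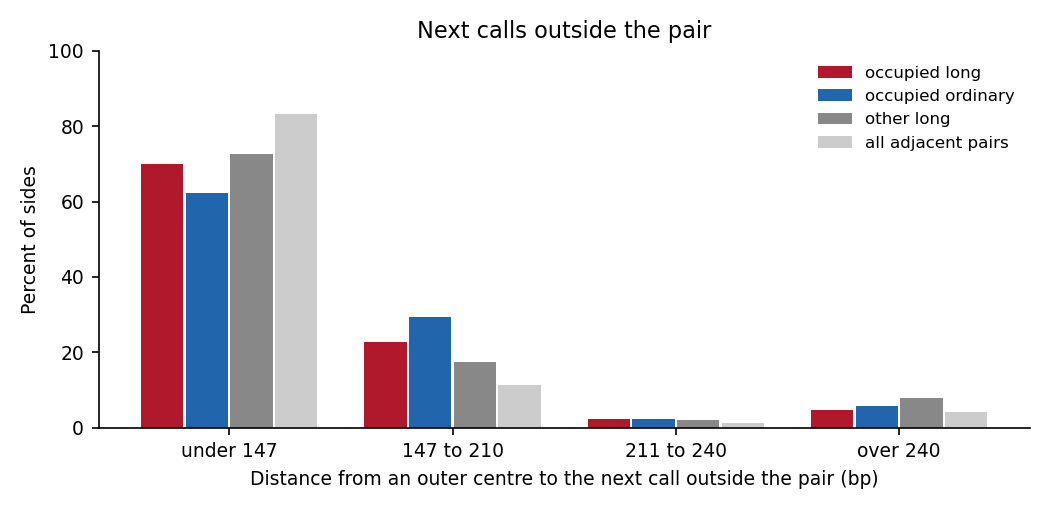
Percent of sides on which the next call outside the pair lay at the given distance, for occupied long pairs (5728 sides), occupied ordinary pairs (30218), other long pairs (91446) and all adjacent pairs. Overlapping calls under 147 bp made up 69.9% at occupied long pairs and 62.3% at ordinary pairs.

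Overlapping neighbours had fewer reads than the members, which the choice builds in because only the members had to reach 8 reads. Over all calls the mean was 4.23 reads and the median score 0.469. The overlapping neighbours of members had a median score of 0.433 and 5.37 ± 4.19 reads (SD, n = 4003), and 24.1% of them reached 8 reads. Next calls at 147 to 210 bp had a median score of 0.614 and 7.95 ± 6.01 reads (n = 1309), and 43.9% reached 8 reads. In ordinary pairs the values for overlapping neighbours were 0.426 and 5.24 ± 4.32 reads, so neighbours of the same class were alike in the 2 groups within their spread.

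Long linkers did not follow each other more often at members than at ordinary pairs. A next call at 211 to 240 bp was found on 140 sides (2.44%) of members and on 2.38% of sides of ordinary pairs, compared with 1.41% of all adjacent pairs. Only 51 members (1.78%) shared a call with another member, in 24 runs of 2 members and 1 run of 3. The run of 3 lay on chromosome 1 between 40507884 and 40508532, with distances of 212, 215 and 221 bp and occupancies of 8, 10, 11 and 19 at its 4 calls. The other 2813 members stood alone. The median distance to the next member along the chromosome was 83378 bp, and 2.14% of these distances were 1 kb or less.

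Members were spread over the whole genome. Every one of 366 bins of 1 Mb held at least 1 member, with a median of 7 and a maximum of 16. The variance over bins was 1.23 times the mean. The maximum of 16 occurred in 4 bins, on chromosome 1 from 23000001 to 24000000, on chromosome 3 from 25000001 to 26000000 and from 27000001 to 28000000, and on chromosome 5 from 6000001 to 7000000. Across bins, which share their read depth, Spearman's rho of the number of members was 0.390 with the number of reads, 0.405 with the number of ordinary pairs and 0.430 with the number of long pairs (n = 366, as a description).

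Chromosomes differed moderately. Chromosome 11 had the most members per Mb (8.75, from 249 members) and chromosome 8 the fewest (6.64, from 188 members), a ratio of 1.32 (exact interval 1.09 to 1.60, which does not allow for their choice as the extremes). The share of long pairs that were occupied was also highest on chromosome 11 (6.53%, interval 5.77% to 7.37%) and lowest on chromosome 8 (5.17%, 4.47% to 5.94%). Chromosome 3 had the highest read density (77.4 reads per kb) and chromosome 12 the lowest (67.6), and chromosome 11 had 70.3. Relative to ordinary pairs, chromosome 11 had 22.6 members per 100 (19.6 to 26.0), while the other chromosomes ranged from 17.5 to 19.7 and the genome had 19.0. The interval of chromosome 11 overlapped those of the others.

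Along the chromosomes, members were more evenly spread than ordinary pairs. Between 40 and 50% of the chromosome length the members were sparsest, with 5.64 per Mb, and between 70 and 80% they were densest, with 335 members against 210. Ordinary pairs ranged from 31.0 per Mb between 30 and 40% of the length to 53.7 per Mb in the last 10%. Per Mb, the first and last 10% held 7.74 and 8.73 members, against 7.70 in the genome. Ordinary pairs had 47.9 and 53.7 per Mb there. Relative to ordinary pairs, the outer 10% at both ends together held 16.2 members per 100, and the interior held 19.9. The interior was higher on 11 of 12 chromosomes, with chromosome 4 as the exception (61 members to 287 ordinary pairs at the ends, 199 to 1103 in the interior). Centromeres and genes were not placed on this build, so these positions are given by length only.

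**Figure D5:**
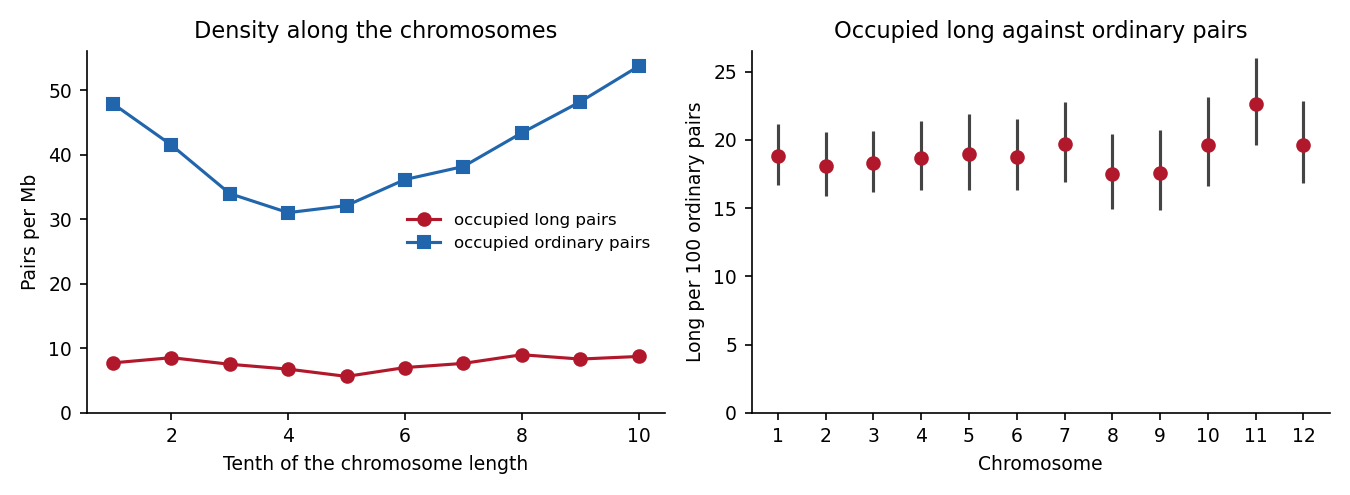
Left, occupied long pairs (red) and occupied ordinary pairs (blue) per Mb in 10% steps of the chromosome length, pooled over 12 chromosomes. Right, occupied long pairs per 100 ordinary pairs on each chromosome with 95% intervals, where chromosome 11 has 22.6 and the others 17.5 to 19.7.

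Read depth moved with membership. The 10 kb around a member had 89.7 ± 22.1 5' ends per kb (SD, n = 2864), against 71.3 ± 25.7 around the other long pairs and 90.1 ± 22.8 around ordinary pairs. Members and ordinary pairs were thus matched in depth, but neither was matched to the other long pairs. Repeated reads made up 26.7% of the reads at the calls of members and 27.2% at those of ordinary pairs. With repeated reads counted once, 1396 members and 7645 ordinary pairs remained above the minimum. The lopsided profile was then 1.17 in members and 0.942 in ordinary pairs. With a minimum set relative to the local depth, 1869 members were found, with a ratio of 1.17.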

How the data were processed

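The authors placed the 36-bp reads of the single-end library on TIGR release 5 of the rice genome by MAQ (1 mismatch, unique positions only), and deposited the read positions, with both technical replicates pooled. The versions of MAQ and nucleR are not given in the sources used here. Any filter on repeated reads is not given in the sources used here. Nucleosome calls were made by the authors from the paired-end library in nucleR, using fragments of up to 200 bp cut to their central 40 bp. Each call has a deposited nucleR score, whose scale is not defined in the sources used here. A copy of the list of calls was not used. The depth was 71.3 reads per kb, so single pairs carry few reads.

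Reads were reduced to 5' ends with Python 3.11.15, numpy 2.4.6, pandas 2.3.3 and scipy 1.17.1, and plotted with matplotlib 3.10.9. Profiles were smoothed over 11 bp to find maxima, within 120 to 260 bp for the next nucleosome and 50 to 100 bp for edges. Levels are counts per 41 bp. No test was run, since each form has 1 biological replicate. Named are the 3 members with the highest smaller occupancy, the highest sum with an empty midpoint and the most reads at the midpoint, the longest run, extreme chromosomes and the richest bins. Members, groups and settings were chosen with earlier results of these data known. The code was tested on simulated data.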

Additional observations from a re-analysis of the deposited data

How the results depend on the processing

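Values were recomputed 38 times under other settings, plus 15 times in comparisons chosen after seeing the data, and 19 and 12 of these stayed within the spread. The number of members was 1396 (2.87% of long pairs) with repeated reads counted once, 4563 (9.39%) with occupancy within 10 bp and a minimum of 4, 1876 (3.86%) within 30 bp and a minimum of 12, 1869 (3.85%) with the minimum relative to local depth, and 11313 among calls in the upper 50% of scores, where adjacency was taken anew. The level at the midpoint (18.3%) was 21.5% with repeated reads counted once, 14.6% within 10 bp, 16.1% relative to local depth and 24.5% in the upper 50% of scores. It was 21.6% when forward ends chose and reverse ends measured, and 22.4% the other way round. The difference from ordinary pairs (-2.59 percentage points) kept its sign in each setting run and was smallest, -0.754, in the upper 50% of scores. There the excess of overlapping next calls (7.61 points) was 5.42 and the lopsidedness (1.15) was 1.08. The median distance to the next call (105 bp) was 168 bp in the upper 50% of scores, 171 bp for calls at least 120 bp away and 255 bp for the next occupied call, as fewer calls count by construction. The ratio of highest to lowest chromosome rose from 1.32 to 1.66 with repeated reads counted once. The cause of these shifts was not tested, except where fewer reads or calls count by construction. Linker length from ends, outward spacing and the score moved by less than their spread in every setting run. Leaving out a replicate was not possible, as each form has 1 biological replicate. No paired analysis was possible because no value comes from a test between samples.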

Other observations

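Beyond the long distances, the share of adjacent pairs occupied at both calls did not fall steadily. It reached 1.24% (95% Clopper-Pearson interval 0.961% to 1.57%) at 281 to 290 bp and 1.22% (0.958% to 1.54%) at 301 to 310 bp. It then rose to 4.03% (3.46% to 4.67%) at 361 to 370 bp, and was 2.88% (2.29% to 3.57%) at 391 to 400 bp. Pairs at 361 to 370 bp were 4238, of which 171 were occupied, far fewer than the 1608 members at 211 to 220 bp.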
